A study of Mus musculus with 6 samples.

Results

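The genes described here are the 4 myogenic regulatory factors (Myf5, Myod1, Myog and Myf6), the satellite cell factor Pax7, the MEF2 factors Mef2a, Mef2c and Mef2d, and the homeodomain factor Six4. These 9 genes were chosen by name, with earlier results of these data known, from the 29072 genes with an identifier in the deposited table. All 9 have at least 1 row in it. RNA was sequenced from the interscapular brown fat of C57BL/6J mice, a depot that burns fuel for warmth. UCP1(-/-) mice, which lack a working Ucp1 gene and are called knockout below, gave 3 libraries, and wildtype mice of the same strain gave 3. The labels give no age, sex or housing temperature and do not state that each library is a different animal. The p-values therefore speak of the spread among these libraries, and that spread may be technical. Levels are in RPKM, reads scaled to transcript length in kilobases and to the library's size.

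Myogenic regulatory factors are basic helix-loop-helix proteins that bind E-boxes together with E proteins and switch on muscle genes. Myf5 and Myod1 commit progenitors to the muscle lineage, Myog drives their differentiation into fibres, and Myf6 (also called MRF4) is known as the most abundant of the group in adult fibres. Pax7 marks satellite cells, the stem cells that lie beside the fibres. MEF2 factors work with the myogenic factors and are also made in many other tissues, while Six4 acts upstream of the myogenic factors. In the mouse, brown adipocytes and skeletal muscle share progenitors that have expressed Myf5.

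Mef2c, Myf6 and Six4 were higher in knockout brown fat. Mef2c was 2.22-fold and Six4 2.75-fold higher as ratios of group means. Myf6 had 7.12 times the reads, scaled to read totals worked out from the values. These were 3 of the 8 genes that could be tested, with none lower, in limma on log2(RPKM + 0.1) with p-values adjusted over 20527 genes. Of all tested genes, 3.87% passed, 3.53% as higher in the knockout (725 genes) and 0.341% as lower (70 genes). After median-of-ratios scaling of the libraries 468 genes passed as higher and 124 as lower, and Myf6 was no longer called. The median log2 change was 1.05 over the 8 tested members and 0.09 over all tested genes. For 5 of the 8 members (Mef2c, Myf6, Six4, Myod1 and Myog) every knockout library lay above every wildtype library, as it did for 19.7% of all tested genes. No member lay lower in every knockout library, against 4.08% of all tested genes.

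**Figure D1:**
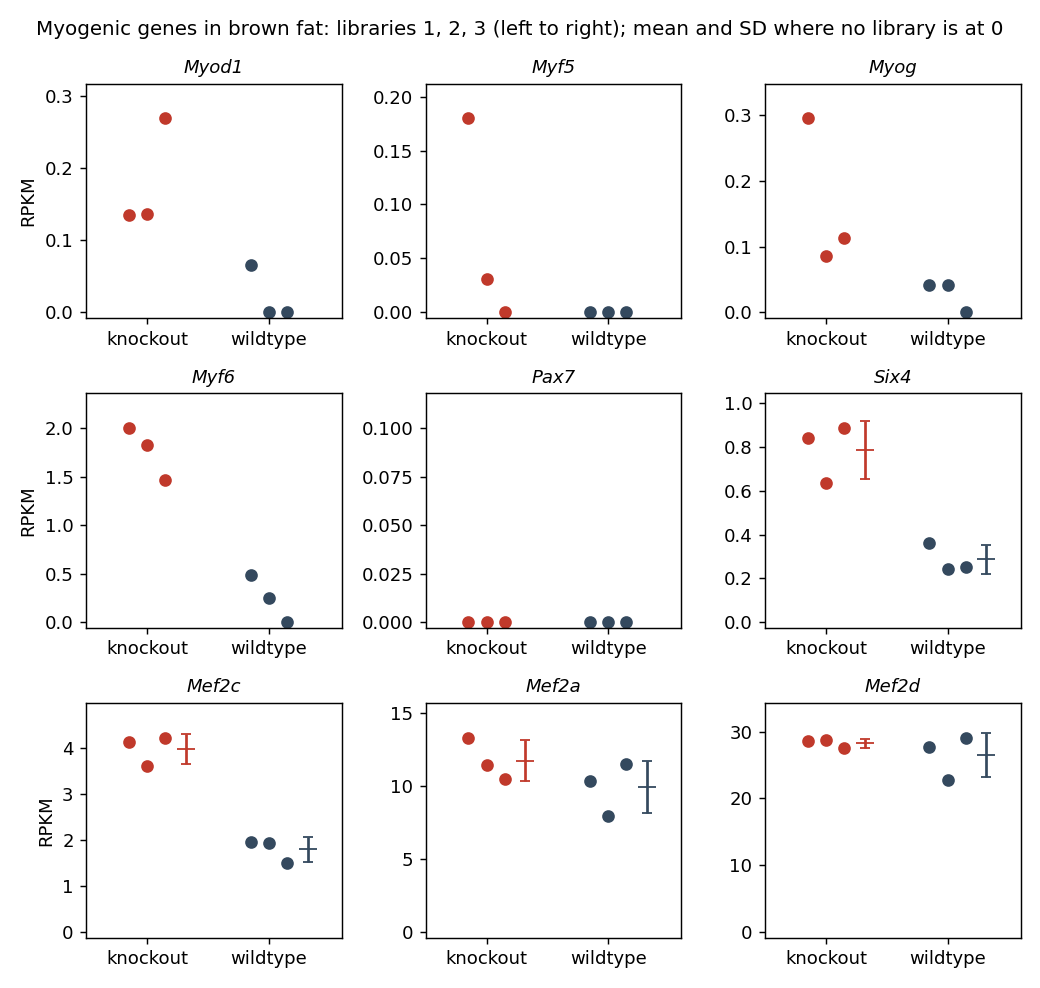
RPKM (vertical axis, linear, own scale per gene) of the 9 genes in knockout libraries (red) and wildtype libraries (blue), replicates 1, 2 and 3 from left to right; the dash and bar are mean and SD over 3 libraries, drawn only for genes above 0 in every library. Knockout and wildtype points are separate for Myod1, Myog, Myf6, Six4 and Mef2c, overlap for Myf5, Mef2a and Mef2d, and stand at 0 throughout for Pax7.

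The read totals behind the scaling came to about 15800000 to 18000000 per library, worked out from the spacing of low values within a set search range. They need not equal the reads sequenced. The targeted gene Ucp1 stood at 375, 389 and 372 RPKM in knockout libraries and at 3096, 1714 and 3151 RPKM in wildtype libraries. Wildtype replicate 2 thus held the least Ucp1 of the wildtype group, and wildtype replicate 3 the least muscle RNA (Acta1, the skeletal actin, was at 425, 424 and 342 RPKM in knockout libraries and at 46.5, 56.95 and 8.54 RPKM in wildtype libraries). All 20 genes of a fast muscle fibre list passed as higher in the knockout, against 3.53% of all tested genes. This list and those below were chosen with earlier results of these data known, so their counts are not independent evidence. The fast list also holds genes of skeletal muscle in general, such as Acta1. Its summed level was 1818 to 2045 RPKM in knockout libraries and 61.0 to 299 RPKM in wildtype libraries. No listed gene was at 0. Of 10 genes on a slow fibre list 8 passed as higher. The 10 summed to 198 to 322 RPKM in knockout and 64.0 to 74.8 RPKM in wildtype libraries. Without Atp2a2, a calcium pump of many tissues that did not pass (adjusted p = 0.0685 in limma) and was singled out after its values were seen, these sums were 131 to 243 RPKM in knockout and 6.15 to 22.7 RPKM in wildtype libraries. The part of this muscle RNA in the members' differences was not tested. In tissue RNA, more cells of a type and more RNA per cell cannot be told apart.

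Among the lineage factors, Myod1 was sparse. Its levels were 0.135, 0.137 and 0.269 RPKM in knockout libraries and 0.0660, 0 and 0 RPKM in wildtype libraries, so the groups were separate. Behind these values lay 4, 4 and 9 reads in the knockout and 2, 0 and 0 reads in the wildtype libraries. Summed over the libraries, 17 knockout reads against 2 wildtype reads gave a ratio of 8.33 after scaling to the read totals. Its exact 95% interval of 1.98 to 74.3 covers counting error only. The log2 change of 1.21 (SE 0.29, limma adjusted p = 0.0662) did not pass. No kept row of Gapdh or Ppia, which every cell uses, was above 0 in any library, so a missing signal here need not mean a silent gene.

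Myf5, the first of these factors to appear in the embryo, had 7 reads in all, every one in knockout libraries. It stood at 0.180, 0.0304 and 0 RPKM in knockout libraries, from 6, 1 and 0 reads, and was listed at 0 in each wildtype library. The groups overlapped at 0, and 1 library held 6 of the 7 reads. A count of 0 allows up to 3 reads, or 0.0882 to 0.0889 RPKM in a wildtype library, so a difference was not detectable at this depth in knockout replicates 2 and 3. The limma adjusted p was 0.401.

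Myog, the differentiation factor, was likewise low. It stood at 0.295, 0.0856 and 0.112 RPKM in knockout libraries and at 0.0414, 0.0416 and 0 RPKM in wildtype libraries. The 12 knockout reads (7, 2 and 3) and 2 wildtype reads (1, 1 and 0) gave a ratio of 5.88 with an exact 95% interval of 1.31 to 54.1, again of counting error only. Every knockout library was above every wildtype library, and knockout replicate 1 was above the others. The log2 change of 0.99 (SE 0.32, limma adjusted p = 0.15) did not pass.

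Myf6 carried most of the signal of the myogenic factors. It stood at 2.001, 1.83 and 1.47 RPKM in knockout libraries, from 40, 36 and 33 reads, and at 0.490, 0.247 and 0 RPKM in wildtype libraries, from 10, 5 and 0 reads. No knockout library came near the wildtype range. The log2 change was 2.76 (SE 0.58, limma adjusted p = 0.0459), and the ratio of reads was 7.12 with an exact 95% interval of 4.13 to 13.2. Myf6 made up 76.6%, 87.9% and 79.3% of the summed RPKM of the 4 factors in knockout libraries and 82.0% and 85.6% in wildtype replicates 1 and 2. All 4 factors are listed at 0 in wildtype replicate 3, the library with the least muscle RNA.

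The Myf6 call was lost without knockout replicate 1, 2 or 3 (adjusted p = 0.164, 0.167 and 0.149), without wildtype replicate 2 (0.101) and after median-of-ratios scaling (0.0615). It was also lost with summed rows, with the highest row of any kind, with the replicate number as a block and without an intensity trend. The log2 change was 1.16 with a pseudocount of 1 RPKM and 1.65 with 0.5 RPKM, 2.03 without wildtype replicate 3 and 3.31 without wildtype replicate 1.

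**Figure D2:**
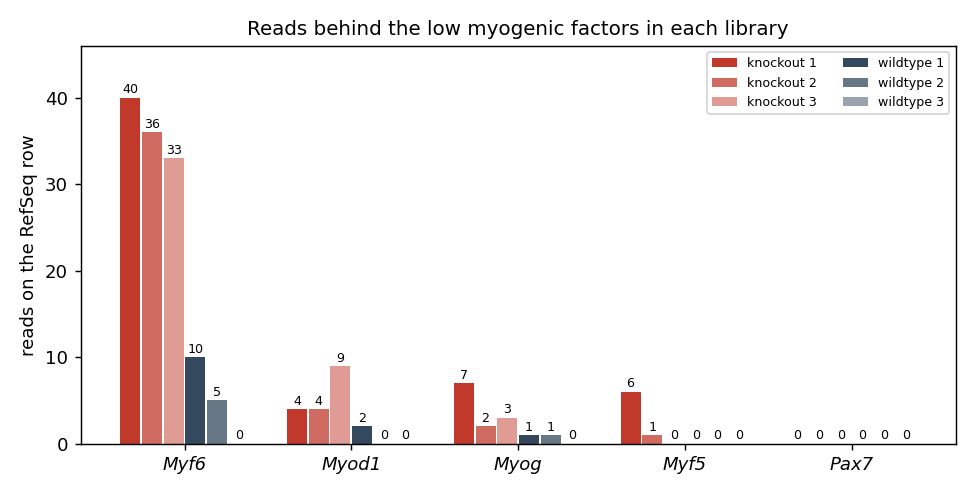
Reads (vertical axis) on the kept row of Myf6, Myod1, Myog, Myf5 and Pax7 in each library, with knockout bars in red and wildtype bars in blue. Myf6 had 33 to 40 reads per knockout library and 0 to 10 per wildtype library, and no other of these genes exceeded 9 reads in any library.

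Pax7, the satellite cell factor, is listed at 0 RPKM in all 6 libraries on its kept row. Of its 4 rows, a single Ensembl row held 1 read each in knockout replicates 1 and 2, at 0.0107 and 0.0108 RPKM, and 0 in every other library. With 3 reads as the limit that a count of 0 allows, up to 0.0325 RPKM could have gone unseen in knockout libraries and up to 0.0316 RPKM in wildtype libraries. No fold is given for Pax7.

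Of 17 tested genes on a satellite cell list, 2 passed as higher and none as lower, with a median log2 change of 0.06. The share of all tested genes that passed as higher was 3.53%. Cdh15, M-cadherin, which joins satellite cells to fibres, stood at 0.242, 0.156 and 0.117 RPKM in knockout libraries and at 0, 0.0217 and 0 RPKM in wildtype libraries. Its log2 change was 1.32 (limma adjusted p = 0.0197), and no wildtype library reached the knockout range. Des, the intermediate filament desmin, which muscle fibres and smooth muscle also make, rose to 55.1 ± 6.80 RPKM in the knockout, against 27.9 ± 3.90 RPKM in the wildtype (SD, n = 3 each), with a limma adjusted p of 0.00829. The Cdh15 call was lost in 5 of 6 fits without a library (kept without wildtype replicate 2), and the Des call without knockout replicate 2 or 3 (adjusted p = 0.0544 and 0.0559). The list's summed level was 198 to 215 RPKM in knockout and 124 to 192 RPKM in wildtype libraries. Most of it came from Des and Sdc4. Sdc4 did not pass, with overlapping groups at 99.96, 105.9 and 97.2 RPKM in knockout and 107.7, 49.6 and 109.5 RPKM in wildtype libraries. The sums therefore say little about the other genes of the list.

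Mef2c kept its call under more alternatives than Myf6 and Six4. The protein is a partner of the myogenic factors in muscle and is also made in endothelium and immune cells. Mef2c stood at 4.12, 3.61 and 4.21 RPKM in knockout libraries and at 1.95, 1.93 and 1.49 RPKM in wildtype libraries, with a wide gap between the groups. The log2 change was 1.12 (SE 0.14, limma adjusted p = 0.00832). In limma the adjusted p was 0.059 without knockout replicate 1, 0.0656 without knockout replicate 3 and 0.0537 with the replicate number as a block. Without knockout replicate 2 the call was only just kept, at an adjusted p that rounds to 0.05.

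The other MEF2 genes were more abundant and did not pass. Mef2a stood at 13.3, 11.5 and 10.5 RPKM in knockout libraries and at 10.3, 7.96 and 11.5 RPKM in wildtype libraries, and the groups overlapped (log2 change 0.25, SE 0.15, limma adjusted p = 0.425). Mef2d stood at 28.6, 28.7 and 27.5 RPKM in knockout libraries and at 27.8, 22.8 and 29.04 RPKM in wildtype libraries. The Mef2d groups also overlapped, and its log2 change of 0.10 (SE 0.10, limma adjusted p = 0.634) became -0.01 after median-of-ratios scaling and without wildtype replicate 2. Mef2c made up 8.95%, 8.24% and 9.96% of the summed RPKM of the 3 MEF2 genes in knockout libraries and 4.88%, 5.90% and 3.54% in wildtype libraries. Mef2c's share was thus higher in every knockout library than in any wildtype library, although Mef2d remained the most abundant of the 3 in all 6 libraries.

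The table holds several transcript rows per gene, which share reads and are not independent. In a fit over all 123499 transcript rows, added after the gene values were seen, 2.71% of rows passed, 2.52% as higher in the knockout. Of 14 Mef2c rows, 9 passed as higher and none as lower. The 4 Mef2c rows with overlapping groups had means under 0.1 RPKM in both groups. The remaining 10 rows lay higher in every knockout library, as did 18.9% of all rows, with log2 changes of up to 1.22. None of 14 tested Mef2a rows passed. A single Mef2a row, at 0.0440, 0.0595 and 0.0651 RPKM in knockout libraries and at 0.144, 0.0868 and 0.0722 RPKM in wildtype libraries, lay lower in every knockout library, as did 3.76% of all rows.

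Of 9 Mef2d rows, 1 passed. This row, the GenBank transcript AK032042, stood at 17.9, 18.2 and 17.5 RPKM in knockout libraries and at 14.4, 12.2 and 12.8 RPKM in wildtype libraries (log2 change 0.44, SE 0.08, limma adjusted p = 0.0361). It is lower in level than the kept Mef2d row, and its groups did not overlap. The log2 changes of the other 8 Mef2d rows were -0.06 to 0.18. Whether this row differed from the other Mef2d rows was not tested.

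**Figure D3:**
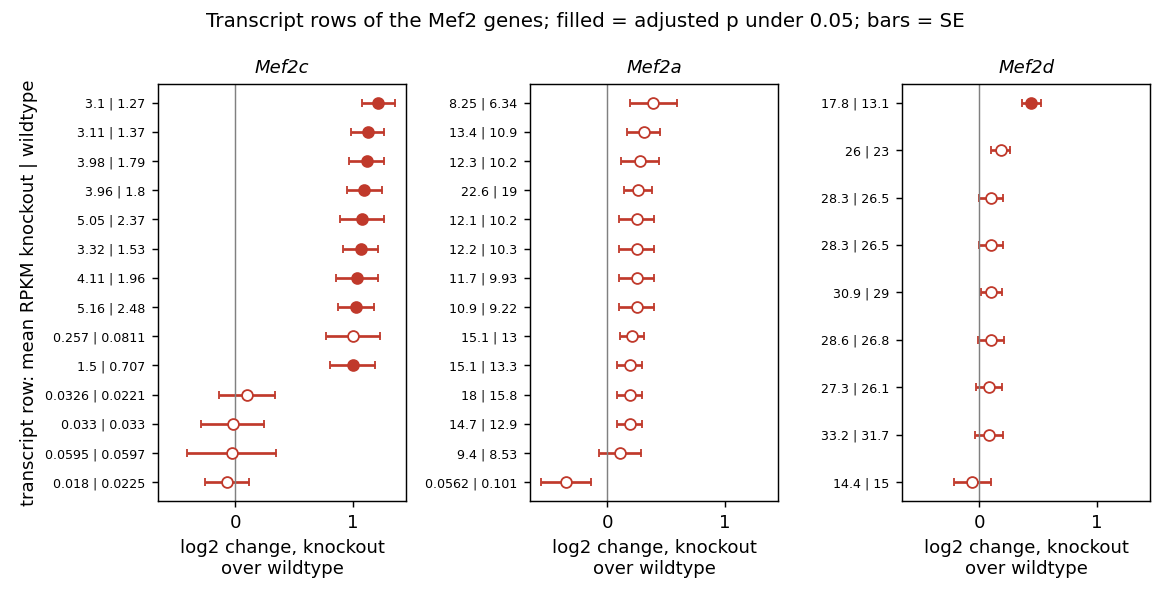
Log2 change of RPKM + 0.1, knockout over wildtype (horizontal axis), with SE bars for each transcript row of Mef2c, Mef2a and Mef2d; row labels give mean RPKM as knockout then wildtype, and filled points passed an adjusted p of 0.05 over all rows. Mef2c rows cluster near the tick at 1, up to 1.22, apart from 4 rows with means under 0.1 RPKM, while Mef2a rows lie between -0.35 and 0.39 and Mef2d rows between -0.06 and 0.44 with deposited scaling.

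Six4 binds the MEF3 motif with EYA cofactors. It stood at 0.840, 0.637 and 0.886 RPKM in knockout libraries and at 0.363, 0.243 and 0.254 RPKM in wildtype libraries, and the groups were separate. The averages were 0.788 ± 0.133 RPKM in the knockout and 0.287 ± 0.0660 RPKM in the wildtype (SD, n = 3 each), a log2 change of 1.20 (SE 0.23, limma adjusted p = 0.032). Both Six4 rows of the table passed in the fit over transcript rows. The call was lost in each of the 6 fits that left out a library (adjusted p = 0.0552 to 0.125), with summed rows (0.0507) and with the replicate number as a block (0.0846). The log2 change was 0.47 with a pseudocount of 1 RPKM and 0.71 with 0.5 RPKM, and the call was kept with both.

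The promoters of Myog and Six4 are shown because both genes lay higher in every knockout library, although Myog did not pass, and because the letters of the MEF3 motif, to which Six4 binds, occur in both. RefSeq sequences of GRCm38.p6 were at hand for 7 of the 9 genes, not for Myod1 and Myf6, with 10 windows in all since Mef2c has 3 annotated starts and Six4 has 2. The 150 bases before each annotated start were searched on both strands for the E-box CANNTG, for the MEF3 motif TCAGGTTTC and for the MEF2 consensus site, and the first 2 are in capitals. The Myog stretch is chr1:134289854-134290003 on the plus strand and the Six4 stretch, before the first of its starts in the RefSeq table, chr12:73113246-73113395 on the minus strand, each printed 5′ to 3′.
Myog: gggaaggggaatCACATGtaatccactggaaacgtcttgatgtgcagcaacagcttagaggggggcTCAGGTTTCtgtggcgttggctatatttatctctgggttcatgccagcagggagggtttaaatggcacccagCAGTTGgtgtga
Six4: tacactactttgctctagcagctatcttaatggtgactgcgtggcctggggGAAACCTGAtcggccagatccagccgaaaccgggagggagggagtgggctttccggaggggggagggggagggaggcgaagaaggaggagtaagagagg

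Counted from the start, the MEF3 letters lie at bases -84 to -76 of Myog, and their reverse complement at bases -99 to -91 of this Six4 window. The window before the other Six4 start holds none of the motifs. Of 32851 promoter windows of the same length, 0.247% hold the MEF3 letters on either strand, and 2 of the 10 member windows do, the pair shown because they hold them. The Myog window has 2 E-boxes, which do not overlap the MEF3 letters, and 15.3% of windows have at least 2 while 47.7% have 1 or more. The only other E-box in the 10 member windows is CATATG at bases -100 to -95 before 1 of the Mef2c starts. The Myog window holds no full match to the MEF2 consensus, which 1.67% of windows hold, but CTATATTTAT is 1 letter away from it. A match is a description of letters and shows no binding.

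The order of levels differed between the groups in a single place among Mef2d, Mef2a, Mef2c, Myf6 and Six4. In knockout libraries, where RPKM is per length, Mef2d (28.3 RPKM on average) stood above Mef2a (11.7), Mef2c (3.98), Myf6 (1.47 to 2.001) and Six4 (0.788), with no overlap between neighbours. The values of Myod1, Myog and Myf5 overlapped below 0.3 RPKM. In wildtype libraries Six4 and Myf6 overlapped. The ratio of Myf6 to Six4 was 2.38, 2.87 and 1.66 in knockout libraries and 1.35, 1.01 and 0 in wildtype libraries, higher in every knockout library. The wildtype ratios rest on 10, 5 and 0 Myf6 reads, so their counting error is wide. Whether the ratio or the order differed between the groups was not tested.

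Other regulators of the muscle lineage gave 5 higher genes among 30 tested, none lower, and a median log2 change of 0.17. Of all tested genes, 3.53% passed as higher. Smyd1, a muscle methyltransferase needed for sarcomere assembly, stood at 5.41, 4.41 and 3.77 RPKM in knockout libraries and at 0.737, 0.871 and 0.389 RPKM in wildtype libraries (log2 change 2.64, limma adjusted p = 0.0054). Vgll2, a TEAD cofactor of skeletal muscle, stood at 0.852, 0.994 and 1.10 RPKM in knockout libraries and at 0.125, 0.210 and 0.0420 RPKM in wildtype libraries. These cofactors are made by muscle fibres themselves. Each lay higher in every knockout library, as did 19.7% of all tested genes. Smyd1 kept its call without any single library, while that of Vgll2 was lost without knockout replicate 1, 2 or 3 (adjusted p = 0.0532, 0.0622 and 0.0712).

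Eya4, a transcriptional cofactor, stood at 0.274, 0.216 and 0.244 RPKM in knockout libraries and at 0.0448, 0.0301 and 0 RPKM in wildtype libraries (limma adjusted p = 0.0121). Mstn, myostatin, a secreted brake on muscle growth, stood at 0.466, 0.402 and 0.434 RPKM in knockout libraries and at 0, 0.138 and 0.0229 RPKM in wildtype libraries (limma adjusted p = 0.0224). Without knockout replicate 1, 2 or 3 both calls were lost, and that of Mstn also without wildtype replicate 1 or 3. The fifth called gene, Eya3, was named after its values were seen, with a log2 change of 0.40 and an adjusted p of 0.0452 in limma. The summed level of the regulator list was 214 to 219 RPKM in knockout and 202 to 216 RPKM in wildtype libraries.

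Genes of myoblast fusion and of developing muscle gave 2 higher genes among 11 tested and none lower, with a median log2 change of 0.33. Over all tested genes 3.53% passed as higher. Cav3, the caveolin of muscle membranes, stood at 1.35, 1.59 and 1.15 RPKM in knockout libraries and at 0.106, 0.266 and 0 RPKM in wildtype libraries (log2 change 2.89, limma adjusted p = 0.0149). Actc1, the cardiac actin that developing skeletal muscle also makes, stood at 1.66, 2.32 and 2.23 RPKM in knockout libraries and at 0.484, 0.399 and 0.0885 RPKM in wildtype libraries. Both called genes are also made in mature striated muscle. Their calls were lost without knockout replicate 1, 2 or 3, and that of Cav3 also without wildtype replicate 1. In every library, 3 genes of the list were listed at 0, the fusion genes Tmem8c (myomaker) and Gm7325 (myomixer), and Chrng, the fetal subunit of the acetylcholine receptor.

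Genes of the neuromuscular junction and of denervated muscle gave 4 higher genes among 15 tested and none lower, with a median log2 change of 0.95. Among all tested genes 3.53% passed as higher. Trim63, the ubiquitin ligase MuRF1 of muscle, stood at 3.18, 3.06 and 2.62 RPKM in knockout libraries and at 0.422, 0.229 and 0 RPKM in wildtype libraries (log2 change 3.56, limma adjusted p = 0.0149). Fbxo32, the ligase atrogin-1, rose to 2.38 ± 0.181 RPKM in the knockout, against 1.10 ± 0.137 RPKM in the wildtype (SD, n = 3 each). Both ligases take part in the turnover of muscle protein. Both lay higher in every knockout library, as did 19.7% of all tested genes, although their calls were lost without knockout replicate 1, 2 or 3. Chrna1, a subunit of the muscle acetylcholine receptor, stood at 0.146, 0.103 and 0.116 RPKM in knockout libraries and at 0.0143, 0 and 0 RPKM in wildtype libraries, and its call was lost in all 6 fits without a library. Chrne, the adult subunit, stood at 0.118, 0.199 and 0.0697 RPKM in knockout libraries and was listed at 0 in each wildtype library, and its call was also lost in all 6.

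**Figure D4:**
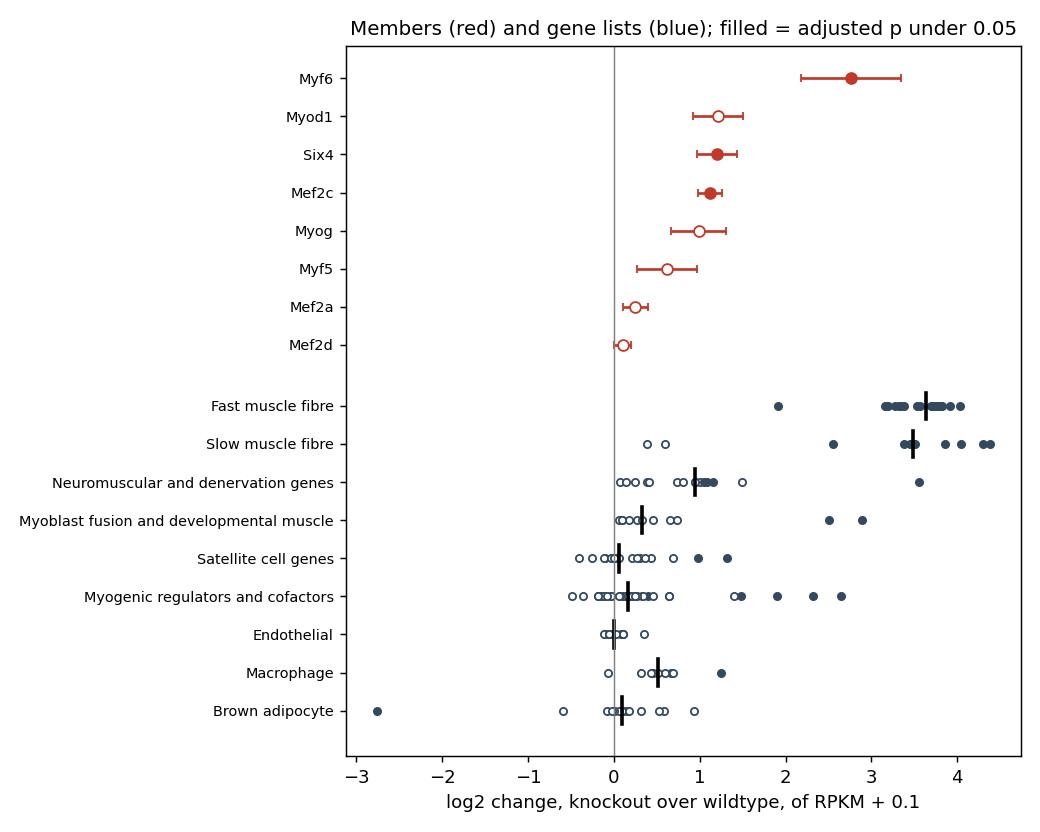
Log2 change of RPKM + 0.1, knockout over wildtype (horizontal axis), of the 8 tested members (red, with SE bars) and of the genes of 9 lists (blue points, 1 per gene; black dash, median); filled points passed an adjusted p of 0.05. Myf6 at 2.76 is the member closest to the fast fibre list, whose median is 3.63, and Mef2d at 0.10 (-0.01 after median-of-ratios scaling) lies nearest to 0.

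The fibre genes with the smallest adjusted p are known from contraction, calcium handling and the supply of fuel and oxygen. The fast fibre list is not limited to genes of fast fibres alone. On it, Cacna1s, the calcium channel of the transverse tubule, rose to 4.34 ± 0.460 RPKM in the knockout, against 0.374 ± 0.235 RPKM in the wildtype. Ryr1, the calcium release channel, rose to 5.18 ± 0.699 RPKM against 0.495 ± 0.324 RPKM (SD, n = 3 each for both genes). Pygm, muscle glycogen phosphorylase, had a log2 change of 3.27 and Myl1, a myosin light chain, one of 1.91. On the slow fibre list, the log2 changes were 3.38 for Mb (myoglobin) and 3.45 for Mybpc1 (a myosin binding protein). They were 4.04 for Tnnt1 and 4.38 for Tnni1 (slow troponin subunits). Tnni1 was highest in knockout replicate 1, at 16.2 RPKM, against 5.13 and 6.95 RPKM in the other knockout libraries. Without knockout replicate 1, 2 or 3 the calls of these fibre genes and of Acta1 were lost, Myl1 apart, and those of Tnnt1, Tnni1 and Acta1 also without wildtype replicate 1. The fast fibre list had a median level of 68.9, 65.5 and 64.2 RPKM in knockout libraries and of 8.94, 10.5 and 1.80 RPKM in wildtype libraries. Whether any member's change differed from that of the fibre genes was not tested.

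Markers of other cells in the depot mostly did not pass. Of 15 brown adipocyte genes, Ucp1 was lower and the other 14 did not pass, with summed levels of 14450.5 to 15318 RPKM in knockout and 15928 to 17165 RPKM in wildtype libraries, so the labelled tissue carries its defining markers. Without Ucp1, the sums of the other 14 overlapped, at 14075 to 14946 RPKM in knockout and 13496 to 14214 RPKM in wildtype libraries. Most of each sum was Fabp4, so the sums say little about the other genes. Dio2, Elovl3, Ppara and Zfp516 lay higher in every knockout library, as did 19.7% of all tested genes. Prdm16 lay lower in every knockout library, as did 4.08% of all tested genes. None of 10 endothelial genes passed (sums of 179.7 to 199 RPKM in knockout and 174 to 193 RPKM in wildtype libraries), and the one with the smallest p was Cldn5, a tight junction protein, at an adjusted p of 0.121 in limma. Of 9 macrophage genes, Mpeg1, a pore-forming protein, passed as higher, as did 3.53% of all tested genes. Mpeg1 stood at 3.44 ± 0.564 RPKM in the knockout and 1.41 ± 0.353 RPKM in the wildtype (SD, n = 3 each). Its call was lost without knockout replicate 1, 2 or 3. The macrophage sums were 54.6 to 72.4 RPKM in knockout and 34.5 to 51.1 RPKM in wildtype libraries, without overlap. The gap between the sums leans on Lyz2, at 25.7, 29.7 and 30.7 RPKM in knockout and 12.7, 21.3 and 20.6 RPKM in wildtype libraries. Lyz2, Csf1r, Emr1, Mpeg1 and Mrc1 lay higher in every knockout library, as did 19.7% of all tested genes. The groups overlapped for C1qa, Cd14, Cd163 and Cd68. Endothelium and macrophages are both known to make Mef2c, and the part of these cells in its difference was not tested.

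No gene passed among 8 of smooth muscle and pericytes, 8 of Schwann cells and nerve, and 5 tested of heart muscle. The genes with the smallest p were Acta2 (smooth muscle actin), Sox10 (a Schwann cell factor) and Tnni3 (cardiac troponin I), with limma adjusted p-values of 0.29, 0.388 and 0.366. Over all genes 3779 reached an unadjusted p under 0.05. The heart list summed to 1.57 to 1.99 RPKM in knockout and 1.77 to 2.02 RPKM in wildtype libraries, with Myl7, Nkx2-5 and Nppb listed at 0.

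Likeness of pattern was measured for the 4 members above 0 in every library, as the root-mean-square difference of centred log2 values over the 6 libraries, among 10302 genes averaging 1 RPKM or more in a group. Mef2c lay closest to Gfra4 (0.083), Bin1 (0.110) and Slc43a2 (0.112). Six4 lay closest to Slfn2 (0.082), Gfra4 (0.106) and Arhgef6 (0.132). Gfra4, a receptor subunit of the GDNF family, was thus near both, at 2.85 ± 0.236 RPKM in the knockout and 1.31 ± 0.217 RPKM in the wildtype (SD, n = 3 each). Mef2a lay closest to Gar1 (0.049), Polr3b (0.052) and Abl2 (0.053), and Mef2d lay close to Papd7 (0.024) and Dhx16 (0.030).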

How the data were processed

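Per the labels' protocols, total RNA of snap-frozen tissue went into TruSeq RNA libraries. CASAVA and bcl2fastq are named in the submitters' processing notes. No source used here gives the aligner, genome build, annotation or use of strand, so overlapping genes cannot be separated. The authors deposited RPKM values for 168326 transcript rows with decimal commas, and no header names the unit. The series file description gives it as RPKM. In 46002 Ensembl rows of known length, 95.8% to 96.1% of low products of value and length were whole multiples of a single step within 0.1 reads. The step was sought within a set range. Such spacing fits counts scaled to length but cannot tell RPKM from another unit of that kind. Reads on low rows of the members were recovered in a similar way. Where the products were not whole, a slightly different transcript length that made them whole was taken. Intervals and limits cover counting error only.

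Rows without a gene identifier (23170) were left out. Each gene kept a RefSeq row, then the row with the highest mean. Genes above 0 in any library were fitted with limma 3.58.1 (R 4.3.3) with an intensity trend on log2(RPKM + 0.1), a scale that understates changes of low genes. Tests were two-sided, adjusted by Benjamini-Hochberg, with a threshold of 0.05. The function was run on simulated data with the same spread set for every gene. Changes were set only in genes above a level that Myod1, Myog and Myf5 do not reach, so the run does not cover these. No expression floor was set.

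All 9 members were named. From each of 12 lists, up to 4 called genes with the smallest adjusted p were named, or the 1 with the smallest p, besides Ucp1, Acta1 and the 3 genes most like each member. Of the genes most like Mef2d, 1 is not reported here. Members and lists were chosen with earlier results of these data known. Adgre1 (as Emr1), Mymk and Mymx appear under older symbols only. Alternatives changed the scaling, pseudocount, filter, rows, libraries, block, trend and threshold.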

Additional observations from a re-analysis of the deposited data

How the results depend on the processing

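Of the members, Mef2c kept its call in 14 of 17 alternatives, Six4 in 7 of 16 and Myf6 in 6 of 17. Myod1, Myog, Myf5 and Mef2a passed in none and kept their direction in all. Over the alternatives the log2 change ran from 1.16 to 3.31 for Myf6, 0.47 to 1.34 for Six4, 0.21 to 1.75 for Myod1, 0.18 to 1.20 for Myog, 0.09 to 0.97 for Myf5 and 0.10 to 0.36 for Mef2a. The log2 change of Mef2d turned to -0.01 after median-of-ratios scaling, and ran from -0.01 (without wildtype replicate 2) to 0.17 (without wildtype replicate 3) over the fits without single libraries. The count of called members, 3 as reported, was 1 with summed rows, 1 at a threshold of 0.01, 0 with the replicate number as a block, and 0 to 2 without single libraries. Of all genes, 795 as reported, 193 passed at 0.01, 228 with the block, and 128 (without knockout replicate 2) to 611 without single libraries. Of 103 tested genes on the 6 muscle lists, 41 passed, against 7 at 0.01, 20 with the block, and 2 (without knockout replicate 2 or 3) to 37 without single libraries, where fewer samples enter the fit. Same-numbered libraries deviated together with correlations of 0.11, 0.02 and 0, so the numbers were not taken as pairs. The alternative over transcript rows was chosen after seeing the data and called 2 members. Depth limits Myod1, Myog, Myf5 and Pax7, with at most 9 reads per library.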
